A study of Solanum lycopersicum with 30 samples.

Results

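PHA1, which pumps protons across the plasma membrane, and the potassium channel SKT3 were followed in tomato (Solanum lycopersicum) leaves challenged with sap carrying tobacco mosaic virus (TMV). They are 2 of the 426 genes with a single symbol and a value on the array, and were chosen as the spots whose only symbol was PHA1 or SKT3. Each symbol belonged to 1 clone printed as 2 spots. The 30 arrays each compared a TMV sample, labelled with Cy3, with a mock sample matched for genotype and time, labelled with Cy5. Mock plants had received leaf sap. The genotypes were sun1-1, a mutant in the N background with enhanced susceptibility, the resistant line (N), and the susceptible line (n). N is a tobacco gene for resistance to TMV. The plants were 28 to 35 days old and had grown at 25 °C with 16 h of light. RNA of 1 plant made up each sample, from leaves collected 3, 9 or 27 h after treatment. There were 3 arrays at each time for sun1-1 and for susceptible plants and 4 for resistant plants.

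Plasma membrane proton pumps use ATP to move protons out of the cell, which sets the voltage and the acidity across the membrane. That gradient drives the uptake of ions and sugars, and in guard cells it opens the way for potassium to enter through channels as the pore widens. Regulatory 14-3-3 proteins bind the tail of the pump and hold it in its active form, and early defence responses of plant cells include fluxes of protons, potassium and calcium across this membrane.

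Values are log2 ratios of the 2 channels, so that 1 is a 2-fold difference. Which channel is divided by which is not stated in the labels, and the dyes were never swapped. A positive value therefore means more signal in the numerator channel, which may be the TMV or the mock sample. Under the opposite reading every value and difference below has its sign turned. Across clones 20 of the 435 pairs of arrays correlated below -0.3, with a lowest r of -0.571, so the data do not settle a common direction either. A ratio carries no level of a gene, so the tissue could not be checked against leaf markers, and a difference in RNA per cell and a difference in the number of cells that make it cannot be told apart. The arrays gave values for 2173 to 9511 clones. The SD of the ratios on an array ran from 0.22 to 1.35, with the widest on sun1-1 3 h replicate 3. The values of sun1-1 27 h replicate 2 stood 1 row out of place and were moved back, after which neither gene had a value on that array. Both genes were chosen by measured values, with earlier results of these ratios known: PHA1 had been named for its ratios in susceptible leaves at 27 h, and for SKT3 no single group is recorded. All their values are accordingly a description.

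PHA1 was read on 29 of the 30 arrays, always by both spots (147814 and 148658, gene ID 102592032). The spots differed by a median of 0.048 and by at most 0.298, and they correlated across arrays at r = 0.944. Of the 3660 clones with both spots on at least 20 arrays, 86.0% had a lower correlation, the median being 0.827. The error of a PHA1 value from its spots was 0.059 (SD), whereas arrays of the same genotype and time differed by an SD of 0.30. The spread between plants and hybridisations was thus 5.16 times that of the spots.

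SKT3 was read on 24 arrays, on 21 by both spots (158764 and 159608, gene ID 102604742) and on 3 by 1 spot. Its spots differed by a median of 0.142 and by up to 0.617, with r = 0.867 across arrays. Of the same 3660 clones, 60.5% had a lower correlation. The SD from the spots was 0.12 and that between arrays of a group 0.35, a ratio of 2.88. The 6 arrays without a value were replicates 3 and 4 of resistant leaves at 3 h, replicate 4 of resistant leaves at 9 h, replicate 3 of sun1-1 at 3 h, replicate 2 of sun1-1 at 27 h and replicate 2 of susceptible leaves at 9 h. Over the 5622 clones with values on at least 20 arrays the median SD between arrays of a group was 0.35, and 33.2% of them were less variable than PHA1 and 49.6% less variable than SKT3.

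**Figure D1:**
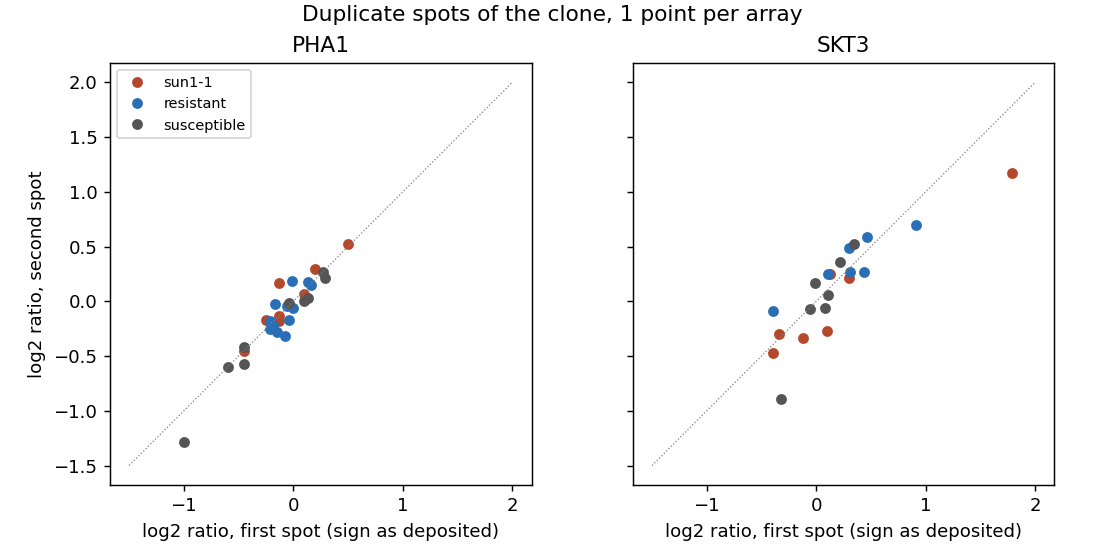
Log2 ratio of the second spot against the first spot of the PHA1 and SKT3 clones (both axes log2, sign as deposited), 1 point per array with both spots, coloured by genotype. The dotted line marks equal values. The 29 PHA1 points lie closer to the line than the 21 SKT3 points, whose spots differ by up to 0.617.

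PHA1 ratios were small in most groups and widest in susceptible leaves. At 27 h susceptible leaves gave 0.049, -0.515 and -1.14, with a mean of -0.54 ± 0.60 (SD, n = 3). The arrays spread from near 0 to the lowest PHA1 value of the study, at which only 0.409% of the 6598 clones on that array were lower. This is the group for which PHA1 had been named, and its mean was -0.23 without replicate 3 and -0.83 without replicate 1. Resistant leaves at 27 h gave -0.0975, 0.157, -0.0505 and 0.157, with a mean of 0.042 ± 0.13 (SD, n = 4). Sun1-1 leaves at 27 h gave 0.084 and 0.2505, with a mean of 0.17 ± 0.12 (SD, n = 2). All 6 of these values lay above the susceptible mean, but susceptible replicate 1 fell within the resistant range.

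At 3 h PHA1 was negative on 8 of 10 arrays, though by little in plants with N. Sun1-1 leaves gave -0.135, -0.159 and 0.014, with a mean of -0.093 ± 0.094 (SD, n = 3). The value above 0 came from the array with the widest spread. Resistant leaves gave -0.234, -0.218, -0.197 and -0.105, with a mean of -0.19 ± 0.058 (SD, n = 4). This was the group with the closest agreement for PHA1. Susceptible leaves gave -0.4335, -0.598 and 0.269, with a mean of -0.25 ± 0.46 (SD, n = 3), replicate 3 standing on the other side of 0 from the other two.

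At 9 h the sun1-1 arrays were the ones far apart. They gave -0.209, 0.511 and -0.453, with a mean of -0.050 ± 0.50 (SD, n = 3). The value of 0.511 was higher than 97.2% of the 8100 clones on that array and was the highest PHA1 ratio of the study. Resistant leaves gave -0.20, -0.029, -0.20 and 0.088, with a mean of -0.085 ± 0.14 (SD, n = 4). Susceptible leaves gave 0.0835, -0.028 and 0.2505, with a mean of 0.10 ± 0.14 (SD, n = 3). The ranges of all 3 genotypes overlapped.

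SKT3 ratios at 27 h were positive in both genotypes with N. Sun1-1 leaves gave 1.48 and 0.2565, with a mean of 0.87 ± 0.86 (SD, n = 2). The higher value came from replicate 1, whose ratios had an SD of 0.69 over 8522 clones against 0.33 for replicate 3, and 97.7% of its clones were lower. Resistant leaves gave 0.2865, 0.392, 0.8035 and 0.181, with a mean of 0.42 ± 0.27 (SD, n = 4). All 4 lay above 0, and replicate 3 was higher than 99.3% of the 3465 clones on its array. Susceptible leaves gave -0.6045, 0.013 and 0.043, with a mean of -0.18 ± 0.37 (SD, n = 3). None of these reached the lowest value of either genotype with N, so the susceptible range did not overlap with theirs, whereas sun1-1 and resistant ranges did overlap. With so few arrays ranges can lie apart by spread alone, and the share of all genes and clones with such a gap was not counted. With the column of sun1-1 27 h replicate 2 as deposited the sun1-1 mean was 0.57, and with array quality weights it was 0.40. In susceptible leaves at 27 h only replicate 1 lay below 0, and without it the SKT3 mean was 0.028.

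At 9 h SKT3 was negative on all 3 sun1-1 arrays, with -0.229, -0.434 and -0.321 and a mean of -0.33 ± 0.10 (SD, n = 3). These were the closest SKT3 values of any group with 3 arrays. Resistant leaves gave -0.2415, -0.167 and 0.525, with a mean of 0.039 ± 0.42 (SD, n = 3). Susceptible leaves gave -0.0655 and 0.285, with a mean of 0.11 ± 0.25 (SD, n = 2). The sun1-1 range overlapped with the resistant one and lay below the susceptible one, a gap not counted over all genes and clones either.

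At 3 h the SKT3 means of the 3 genotypes lay within 0.15 of each other, which is less than the spread between arrays. Sun1-1 leaves gave 0.1875 and -0.085, with a mean of 0.051 ± 0.19 (SD, n = 2). Resistant leaves gave 0.348 and -0.028, with a mean of 0.16 ± 0.27 (SD, n = 2). Susceptible leaves gave 0.075, 0.084 and 0.4355, all positive, with a mean of 0.20 ± 0.21 (SD, n = 3). Every range overlapped with the other two.

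**Figure D2:**
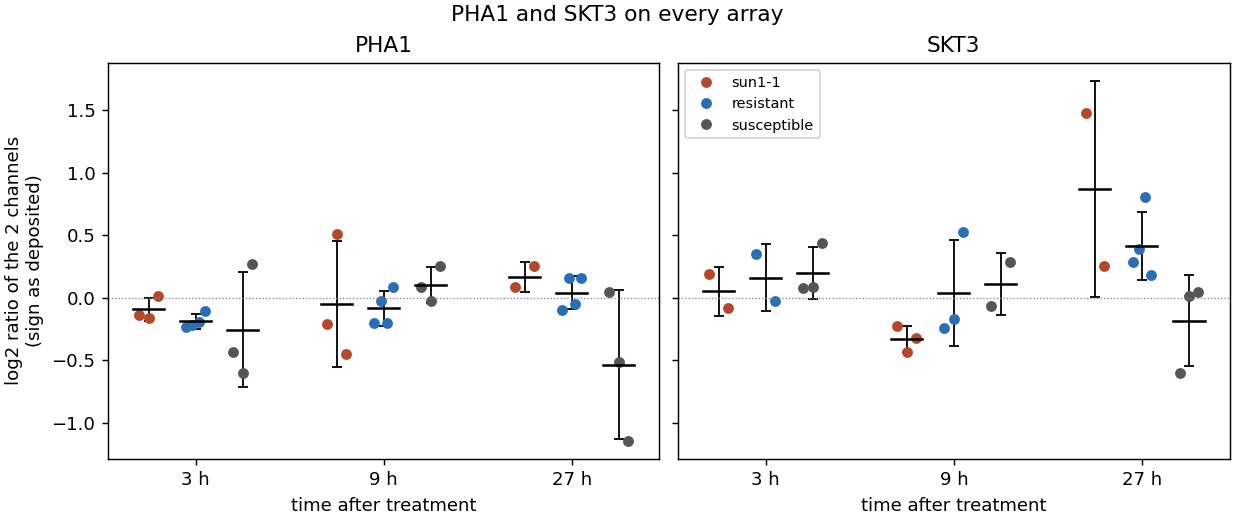
Log2 ratio of PHA1 and SKT3 (vertical axis, sign as deposited) on every array, by time and, within a time, sun1-1, resistant and susceptible leaves from left to right. Points are arrays, horizontal lines group means and bars the SD. The lowest PHA1 value, -1.14, and the highest SKT3 value, 1.48, both stand at 27 h.

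Put in order, the PHA1 means ran from susceptible 27 h (-0.54) over susceptible 3 h, resistant 3 h, sun1-1 3 h, resistant 9 h, sun1-1 9 h, resistant 27 h and susceptible 9 h to sun1-1 27 h (0.17). The SKT3 means ran from sun1-1 9 h (-0.33) over susceptible 27 h, resistant 9 h, sun1-1 3 h, susceptible 9 h, resistant 3 h, susceptible 3 h and resistant 27 h to sun1-1 27 h (0.87). For both genes the ranges of all 8 pairs of neighbours in this order overlapped. Sorting puts the closest means side by side, so such overlap was likely beforehand and nothing is read from it. Groups farther apart in the order need not overlap, as for SKT3 in sun1-1 leaves at 9 h (up to -0.229) and 27 h (from 0.2565). In the outer 5% of the clones of their array lay 1 of 29 PHA1 values and 2 of 24 SKT3 values. By definition 5% of all clones lie there, so counts this small do not set the genes apart from other clones.

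The genotypes were set against each other at 3, 9 and 27 h as a description. A dye effect of a clone cancels in such differences if it is equal on every array, which was not tested. All genes and clones were fitted together by limma, with the 9 groups as terms. At 27 h PHA1 differed by 0.70 (SE 0.28) between sun1-1 and susceptible leaves and by 0.58 (SE 0.23) between resistant and susceptible leaves. SKT3 differed by 1.05 (SE 0.32) and 0.60 (SE 0.26) in the same comparisons. These 4 differences were larger than those of 89.4% to 97.1% of the genes and clones fitted alongside. The PHA1 differences include the susceptible values for which it had been named, and SKT3 was also chosen by measured values. Nothing is read from the rank of any of the 4. Between the 2 genotypes with N the differences at 27 h were smaller, 0.13 (SE 0.27) for PHA1 and 0.45 (SE 0.30) for SKT3. Without replicate 1 the PHA1 difference between resistant and susceptible leaves was 0.92. With array quality weights SKT3 differed by 0.57 between sun1-1 and susceptible leaves and by -0.087 between sun1-1 and resistant leaves.

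At 3 and 9 h the genotype differences of PHA1 ran from -0.19 (SE 0.23) to 0.16 (SE 0.25). Those of SKT3 at 3 h ran from -0.15 (SE 0.32) to -0.038 (SE 0.32). At 9 h SKT3 differed by -0.44 (SE 0.32) between sun1-1 and susceptible leaves, by -0.37 (SE 0.28) between sun1-1 and resistant leaves, and by -0.071 (SE 0.32) between resistant and susceptible leaves. The sun1-1 differences of SKT3 thus stood below 0 at 9 h and above 0 at 27 h.

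**Figure D3:**
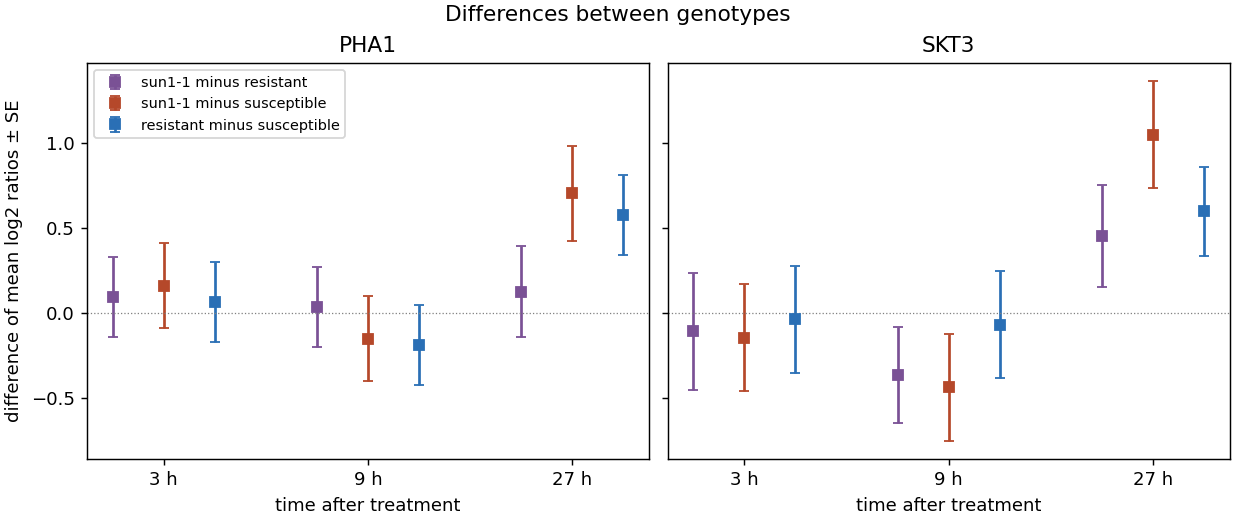
Difference of mean log2 ratios between genotypes at 3, 9 and 27 h for PHA1 and SKT3 (vertical axis, log2 scale), with bars for the SE of the limma fit. The differences farthest from 0 are those against susceptible leaves at 27 h, 0.70 and 0.58 for PHA1 and 1.05 and 0.60 for SKT3.

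Averaged over the 3 genotypes, PHA1 was at -0.18 (SE 0.098) at 3 h, -0.011 (SE 0.098) at 9 h and -0.11 (SE 0.11) at 27 h. SKT3 was at 0.14 (SE 0.13), -0.060 (SE 0.12) and 0.37 (SE 0.12) at these times, the last being larger in size than the values of 97.1% of the genes and clones. Nothing is read from that rank, since SKT3 was chosen by measured values. The 27 h mean joins -0.18 in susceptible, 0.42 in resistant and 0.87 in sun1-1 leaves, the last from 2 arrays. Averaged over the 3 times, PHA1 was at 0.0079 (SE 0.11) in sun1-1, -0.077 (SE 0.089) in resistant and -0.23 (SE 0.10) in susceptible leaves. SKT3 was at 0.20 (SE 0.13), 0.20 (SE 0.12) and 0.042 (SE 0.12) in these genotypes.

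Neither gene was called. Over 27 comparisons, including limma's moderated F test of the change over time in each genotype, 0 passed a Benjamini-Hochberg adjusted p of 0.05 for PHA1 and 0 for SKT3. At an unadjusted p under 0.05 there were 4 for PHA1 and 6 for SKT3, a count from which nothing is read because the genes had been picked with such values known. In 26 of the comparisons 0% of all genes and clones tested were called, and in the mean over the genotypes at 3 h 0.0933% were. A missed call does not show that the ratios were equal.

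Over the 24 arrays with both PHA1 and SKT3, r was 0.128 (permutation p = 0.538) and Spearman's rho was 0.212 (permutation p = 0.318), with adjusted p-values of 0.538 and 0.478 over 3 relations, and they had the same sign on 12 arrays. The permutations shuffled arrays across all 9 groups, so these p-values also carry differences between groups. Without the 2 arrays farthest from the PHA1 median r was 0.304. Within sun1-1, resistant and susceptible arrays it was 0.129, 0.148 and 0.0778. Taken as deviations from the group means, r had the opposite sign, -0.237.

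PHA2, a second plasma membrane proton pump, had 4 clones and a value on all 30 arrays. Its mean at 27 h was -0.22 ± 0.40 (SD, n = 3) in sun1-1 leaves. Resistant leaves averaged 0.20 ± 0.49 (SD, n = 4) and susceptible leaves -0.31 ± 0.39 (SD, n = 3). Here PHA2 in sun1-1 stood on the other side of 0 from PHA1. In susceptible leaves at 27 h PHA2 gave -0.547, 0.1335 and -0.526, so the arrays low for the 2 pumps were the same only for replicate 3. Over the 29 arrays with both, PHA1 and PHA2 correlated at r = 0.384 (permutation p = 0.0408, adjusted p = 0.122 over 3 relations) and rho = 0.391 (permutation p = 0.0376, adjusted p = 0.113). Nothing is read from these p-values, since arrays were shuffled across groups and include those for which PHA1 had been named. The correlation was 0.275 without the 2 arrays farthest from the PHA1 median, and 0.340, 0.696 and 0.538 within sun1-1, resistant and susceptible arrays. As deviations from the group means it was 0.402. The 2 pumps had the same sign on 20 arrays. Whether a clone of 1 pump also bound transcripts of the other was not tested.

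KST1, a potassium channel known from potato guard cells, had 2 clones and a value on 24 arrays. At 27 h it averaged 0.21 ± 0.16 (SD, n = 2) in sun1-1 leaves. Resistant leaves averaged 0.12 ± 0.23 (SD, n = 4) and susceptible leaves 0.37 ± 0.38 (SD, n = 2), against -0.18 for SKT3 in susceptible leaves. That SKT3 mean was below 0 through replicate 1 alone, at -0.6045. KST1 had no value on susceptible replicate 3 at 27 h, so the means cover different arrays. A clone read on only 5 arrays entered the KST1 means at 27 h. The other clone alone gave 0.040 in sun1-1, 0.16 in resistant and 0.43 in susceptible leaves. The highest KST1 ratio, 2.44, came from 1 spot on sun1-1 3 h replicate 3, the array with the widest spread. The other sun1-1 arrays at 3 h were at -0.065 and -0.066. SKT3 and KST1 correlated at r = -0.150 (permutation p = 0.525) and rho = -0.135 (permutation p = 0.557) over 21 arrays, with adjusted p-values of 0.538 and 0.557. Without the 2 arrays farthest from the SKT3 median r was -0.225, and within sun1-1, resistant and susceptible arrays it was 0.216, -0.383 and -0.597. As deviations from the group means it was -0.390.

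Of the 7 other listed genes of ion transport and signalling at the membrane, 5 were tested in all 27 comparisons. These were PHA2, KST1, the 14-3-3 proteins 16R and RA215, and CDPK2, a calcium-dependent protein kinase. CDPK1, a kinase of the same family, had a value on 4 arrays and SUT2, a sucrose transporter, on 2. By limma 0 of 136 tests of these genes passed the adjusted threshold. Of these tests 7 had an unadjusted p under 0.05, and the smallest p after adjustment was 0.242. In susceptible leaves at 27 h, where PHA1 and SKT3 averaged below 0, 4 of the 6 genes tested averaged above 0, with a median of 0.11. In resistant leaves at 27 h 4 of 5 averaged above 0, and in sun1-1 leaves 1 of 5.

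The 14-3-3 gene 16R had 3 clones, which were read on different numbers of arrays. In resistant leaves at 3 h their mean gave -0.023, -0.4185, -0.453 and -0.2165, at 9 h 0.44975, 0.219, 0.049 and 0.496, and at 27 h -0.433, -0.045, -0.1155 and -0.335. The 9 h range lay above 0 and apart from the other two, which lay below 0 and overlapped. The share of all genes and clones with such gaps was not counted. The 3 h side of this rests on the averaging of clones. On replicate 1 at 3 h the clone with values on most arrays was at 0.0885 and another at 0.084. Only the third, at -0.2425, brought the mean below 0. With the first of these clones alone the 3 h and 9 h ranges overlapped. Its 9 h values still lay above 0 and its 27 h values below 0. With that clone 0 comparisons of 16R had an unadjusted limma p under 0.05, against 4 with the clones averaged. PHA1 in the same leaves averaged -0.19, -0.085 and 0.042 at these times, without that turn. The change of 16R over time in resistant leaves had an adjusted p of 0.755 in limma's F test. RA215 lay between -0.36 and 0.17 in all 9 group means and CDPK2 between -0.22 and 0.15.

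**Figure D4:**
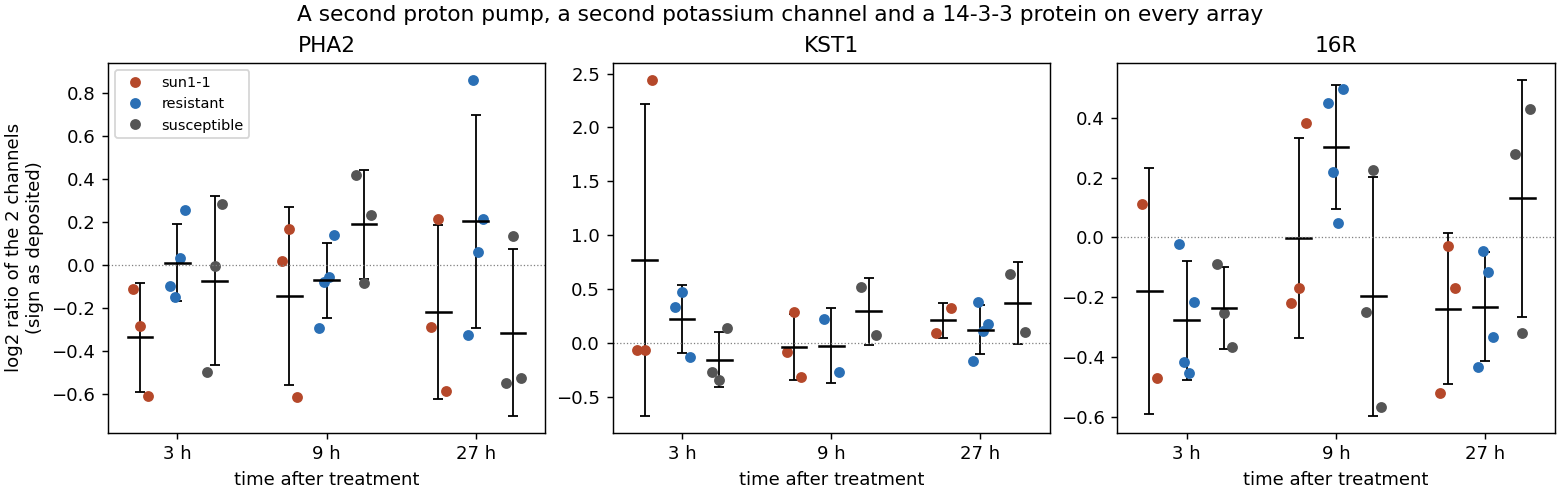
Log2 ratio (vertical axes, sign as deposited, each with its own scale) of PHA2, KST1 and 16R on every array, by time and, within a time, sun1-1, resistant and susceptible leaves from left to right. Points are arrays, horizontal lines group means and bars the SD. The KST1 point at 2.44 is sun1-1 3 h replicate 3, and the 16R points of resistant leaves, means over its clones, are above 0 at 9 h and below 0 at 3 and 27 h.

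The genes whose ratios followed PHA1 most closely, among 327 genes sharing at least 20 arrays with it, were LOC102594540 (r = 0.628 over 25 arrays), MS (r = 0.586 over 29) and METK1, an S-adenosylmethionine synthetase (r = 0.546 over 29). The most opposed were LOC102603136 (r = -0.568 over 25) and LOC102604560 (r = -0.547 over 26). The median over the 327 genes was 0.054, and 5 exceeded 0.5. For SKT3, among 316 genes, the closest were LOC102577637 (r = 0.802 over 24 arrays), LOC102577612 (r = 0.782 over 24) and LOC102577908 (r = 0.775 over 21). The most opposed were LOC102577552 (r = -0.673 over 24) and LOC102577663 (r = -0.669 over 24). For SKT3 32 genes exceeded 0.5, the median being -0.023. That count is not comparable with the 5 of PHA1, since SKT3 was read on 24 arrays and PHA1 on 29. The highest SKT3 value, 1.48, came from an array with a wide spread, and these correlations were not recomputed without it. By ranks the 3 closest to SKT3 had rho of 0.702, 0.667 and 0.644, and the 2 most opposed had -0.470 and -0.494. LOC102577552, though opposed by r, had the sign of SKT3 on 10 of 24 arrays. These arrays share their RNA, spread and dye effects across genes, so the correlations are a description.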

How the data were processed

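Per the submitters' processing notes the authors used limma (no version given). They deposited 1 log2 ratio per spot and array. That the base is 2 follows from the numbers themselves, since 100% of the 5154 ratios at or below -1 came within 0.002 of a 2-decimal linear ratio once put on the log2 scale. How the arrays were scanned, background-corrected, normalized and filtered is not given in the sources used here. Array numbers limit the precision.

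The 2 spots of a clone were averaged, then the clones of a symbol (426 genes), and clones without a symbol were kept, giving 12212 rows. None of the gene IDs was in the tomato gene table (0 matched), nor was the symbol PHA1 or SKT3. Symbols are therefore those of the platform, and which tomato gene each clone reads could not be checked. For 2 resistant arrays, replicate 4 at 9 and 27 h, the TMV protocol names another time, and titles were used. The moved column had a mean absolute correlation with other arrays of 0.0115 as deposited and 0.172 after the move, whereas the other 29 arrays were best unmoved.

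Tests used R 4.3.3 and limma 3.58.1 (lmFit, eBayes, prior df 5.66), on comparisons whose groups held 2 or more arrays, and Benjamini-Hochberg adjustment over all rows. The code was tested on simulated data. Permutations used 100000 resamples, two-sided, and shuffled arrays across all 9 groups. Genes and lists were chosen with earlier results of these data known. Named were PHA1, SKT3, the listed membrane genes, and the 3 closest and 2 most opposed genes by Pearson r. Each limma p sets a mean or difference against the spread between arrays of a group, which eBayes draws towards that of all rows. A permutation p mixes differences between groups with those between arrays. Since the dyes were never swapped, group means and their averages also carry any dye effect of a clone, which was not tested.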

Additional observations from a re-analysis of the deposited data

Results flagged for a closer look

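SKT3 in sun1-1 leaves was negative on 3 of 3 arrays at 9 h and positive on 2 of 2 arrays at 27 h, a difference of 1.20 (27 h minus 9 h). It stood out because every array of one time lay on the other side of 0 from every array of the other. Pairs of groups sharing a genotype or a time were searched for such a split in each listed gene. With so few arrays a split can arise by spread alone, and its share over all genes and clones was not counted. SKT3 was also chosen by measured values. Limma's F test of the change over time in sun1-1 leaves gave an adjusted p of 0.594 (0.284 to 0.752 over the alternatives), so the difference failed the correction. At 27 h it rests on 2 arrays, of which replicate 1 has the wider spread.

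As the mean of its clones, 16R in resistant leaves was negative on 4 of 4 arrays at 3 h, positive on 4 of 4 at 9 h and negative on 4 of 4 at 27 h. How many of all genes and clones turned in this way was not counted. The differences were 0.58 (9 h minus 3 h) and -0.54 (27 h minus 9 h), and the F test over the 3 times gave an adjusted p of 0.755 in limma (0.503 to 0.998 over the alternatives), so neither passed. The sign at 3 h depends on the clones averaged, since on replicate 1 the clone with values on most arrays was at 0.0885 and another at 0.084. No array of the 17 groups of 4 examined, over these genes, lay far enough from the rest of its group to stand out. Only resistant leaves had 4 arrays at a time, so sun1-1 and susceptible leaves were not examined in this way.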

How the results depend on the processing

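Of 480 group means and genotype differences of PHA1 and SKT3 recomputed under the alternatives, 476 moved by less than the spread between arrays and 14 turned their sign. A group mean was judged against the SD of its own group, and a difference against the pooled SD between arrays of a group. Wide groups thus pass most easily, and many of the 480 values could not move, so 476 is no measure of stability. The calls of both genes stayed at 0 under all 16 settings that held them, with lowest adjusted p-values of 0.147 for PHA1 and 0.0821 for SKT3 by limma. Neither gene had a value on all 30 arrays, and each had 1 clone (36 values), so those alternatives could not change them. Nor could values move among genes with a symbol only (36 of the 480) or with at least 3 arrays per group (22). Without sun1-1 27 h replicate 2, where neither gene was read, 36 more were fixed. With array quality weights SKT3 differed by -0.087 between sun1-1 and resistant and by 0.57 between sun1-1 and susceptible leaves at 27 h. Leaving out replicates gave -0.50 to 0.12 for PHA1 between sun1-1 and susceptible leaves at 9 h (-0.15 with all arrays) and 0.31 to 0.92 between resistant and susceptible leaves at 27 h. The cause was not tested.

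Over the 27 comparisons 5 genes and clones were called. The count was 61 with arrays scaled to 1 spread, 370 with array quality weights, 3 among rows with a value on all arrays, 9 with at least 3 arrays per group, 2 without sun1-1 3 h replicate 3, and 0 to 283 when a replicate was left out. The other listed genes had 0 calls also among genes with a symbol only.

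Deviations from group means correlated at -0.020 on average between arrays of the same replicate number (111 pairs, of which 30 exceeded 0.1, range -0.527 to 0.58). For other numbers the average was 0.0067 (288 pairs, of which 87 exceeded 0.1, range -0.531 to 0.529). Values of either sign cancel in these averages, so they do not settle whether replicate numbers pair the arrays. With the replicate block SKT3 differed by 0.99 between sun1-1 and susceptible leaves at 27 h and PHA1 by 0.72, and neither was called.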
